A study of Homo sapiens with 14 samples.

Results

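Guides against the Notch effectors of the HES and HEY family were followed through cardiomyocyte differentiation of a pooled knockout library. The set holds every guide of both deposited tables whose target is HEY1, HEY2, HEYL, HES1, HES2, HES4, HES5, HES6, HES7 or RBPJ. All 10 genes were present with 7 guides each, which gives 70 of 11364 guides (0.616%). Membership follows the gene family and uses no measured value, although the family was picked with earlier results of these data known. Guide sequences were not used here, and guides are named by gene and number as in the tables.

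Notch signalling passes between neighbouring cells. A ligand on one cell triggers cleavage of the Notch receptor on the next, the freed intracellular part enters the nucleus, and there it binds RBPJ, the DNA-binding factor through which the canonical pathway acts. RBPJ without it recruits corepressors. Several HES and HEY genes are classic direct targets, and the family encodes basic helix-loop-helix repressors with an Orange domain. In the mouse heart, HEY2 is known for ventricular compact muscle, HEY1 and HEY2 for the boundary of the atrioventricular canal, and Notch activity in the endocardium for trabeculation and valve formation. HES1 is the most widely expressed family member, HES5 is best known from neural progenitors, HES7 belongs to the mouse somite clock, and HES6 is known to antagonise HES1 in mouse neurogenesis.

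The cells were H9, an established human pluripotent stem cell line whose genotype is labelled WT. All groups carried the doxycycline-inducible Cas9 and the transcription factor library, so a single line underlies every value, and each culture is a pool of knockouts. The 5 groups were undifferentiated cells at day 0 (2 libraries), and the TNNT2- and TNNT2+ fractions, sorted on cardiac troponin T, of 2D and of 3D cultures at day 25 (3 libraries each). Guide DNA was counted. Neither RNA nor the edit itself was measured, so the identity of the sorted cells, the loss of each protein and the expression of these genes could not be checked.

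Library totals lay between 22355936 and 31671019 reads. Day 0 replicate 2, 3D TNNT2- replicates 2 and 3 and 3D TNNT2+ replicate 3 stood apart, with 11.1% to 43.6% of all guides under 10 reads, against 0.502% to 3.19% in the other libraries. Of the 70 HES, HEY and RBPJ guides, 25 were under 10 reads in day 0 replicate 2, 6 and 16 in 3D TNNT2- replicates 2 and 3, and 26 in 3D TNNT2+ replicate 3. In the other 10 libraries 0 to 3 were. The family took 0.525% to 0.695% of the reads of a library.

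Levels are given as CPM (each library's reads scaled to the same sum), added up over the 7 guides of a gene. RBPJ was among the least represented targets by the mean of every group, though not in every library. Its guides summed to 456 and 299 CPM at day 0, to 381, 375 and 410.3 CPM in 2D TNNT2- and to 342, 449.6 and 337 CPM in 2D TNNT2+ libraries. In 3D they summed to 212, 377 and 353 CPM in TNNT2- and to 219.9, 222 and 752 CPM in TNNT2+ libraries, the last of these in replicate 3, which stood apart. By group means, 2.48% to 9.97% of the 1574 genes with 7 guides lay below RBPJ, and that low level was already present at day 0 (9.66%). The median gene had 591 to 595 CPM in each group. HES5 had the highest day 0 mean of the members, above 84.7% of genes, from 706 and 894 CPM. In replicate 1, however, HEYL (772 CPM) and HES1 (747 CPM) lay above it, and the higher HES5 value is from replicate 2, which stood apart.

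Ordering the 5 groups by their mean CPM gave 4 neighbouring pairs for each gene, 40 in all. In 39 of them the libraries of the neighbours overlapped. The exception was HES5, whose day 0 libraries (706 and 894 CPM) lay above those of the next group, 2D TNNT2- (542, 678 and 644 CPM). In day 0 replicate 2, which stood apart, the single guide HES5_4 supplied 468 of the 894 CPM. The share of all genes with such a pair was not determined. Day 0 lay above all 6 day 25 libraries of a system in 6.23% of genes for 2D and 3.33% for 3D. Group means of the other members ran from 399 to 624 CPM for HEY2, 442 to 635 CPM for HEY1, 621 to 826 CPM for HEYL and 454 to 702 CPM for HES1. They ran from 496 to 700.1 CPM for HES2, 506 to 709 CPM for HES4, 406 to 637 CPM for HES6 and 591 to 929.8 CPM for HES7.

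The 2D sort asks which knockouts are found more often in one of the fractions. HES4 and HES5 guides leaned toward the TNNT2- fraction, but no member passed the test. Log2 fold changes are TNNT2- over TNNT2+, from the mean over a gene's guides of log2(value + 10), where the value is the deposited normalized signal. They were tested with limma over all 1621 genes, and a call is an adjusted p under 0.05. No gene was called in either direction (0% of genes), and edgeR and DESeq2 called none of the 10 members. At an unadjusted p under 0.05, 2 of 10 members were higher and 0 lower, against 2.59% and 1.23% of all genes. The median of the 10 members was 0.09, beside 0.05 over all genes.

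HES4, a family member that mice lack, lies on chromosome 1 from 998964 to 1000097 (GRCh38.p14). Its guides summed to 689, 729.8 and 708 CPM in the 3 TNNT2- libraries and to 536, 599.8 and 513 CPM in the TNNT2+ libraries. All TNNT2- libraries lay above all TNNT2+ libraries, and the means were 709 ± 20.6 CPM (SD, n = 3) and 549 ± 45.1 CPM (SD, n = 3). Such a separation of summed levels occurred in this direction in 4.13% of genes. The log2 fold change was 0.54 ± 0.22 (SE, 95% interval 0.07 to 1.005), unadjusted p = 0.0255, limma adjusted p = 0.963. All 7 guides were higher in TNNT2- cells, by 0.02 to 1.23, a pattern seen in 0.45% of 1556 genes (0.9% had all 7 lower).

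HES5, on chromosome 1 from 2528745 to 2530263, summed to 542, 678 and 644 CPM in TNNT2- and to 383, 623 and 528 CPM in TNNT2+ libraries. These summed levels overlapped. The guide means of log2 values did not, as they were 10.51, 10.78 and 10.65 in TNNT2- and 9.78, 10.28 and 10.33 in TNNT2+ libraries, a separation that 4.81% of genes showed in this direction and 3.64% in the other. The log2 fold change was 0.51 ± 0.24 (SE, 95% interval 0.01 to 1.01, limma adjusted p = 0.963), and 6 of 7 guides were higher. Guide HES5_6 had the widest gap, with 44.1, 67.1 and 47.4 CPM in TNNT2- against 8.35, 9.18 and 32.9 CPM in TNNT2+ libraries, and the median guide lay at 0.18. With guides summed before the log2 the HES5 value was 0.27.

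The other members lay between -0.20 and 0.38 in 2D. For RBPJ, the factor all canonical Notch output passes through, the log2 fold change was 0.09 ± 0.32 (SE), with a 95% interval from -0.58 to 0.76 and 4 of 7 guides higher. HES1 had 0.33 ± 0.26 (SE), from 743, 509 and 493 CPM in TNNT2- and 421, 402 and 538 CPM in TNNT2+ libraries, which overlapped. HES6 had -0.16 ± 0.33 (SE), HES2 -0.20 ± 0.27 (SE), HES7 0.06 ± 0.20 (SE), HEY1 -0.14 ± 0.31 (SE) and HEYL 0.09 ± 0.25 (SE). HEY2, the ventricular member, had 0.38 ± 0.33 (SE), but summed to 596, 555 and 477 CPM in TNNT2- and to 579.6, 568 and 531 CPM in TNNT2+ libraries. With guides summed before the log2 its value was -0.08. Intervals of this width leave room for changes in either direction for all 8 of these genes.

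The guides of a gene often disagreed in 2D. Of the 70 guides 41 were higher and 29 lower in TNNT2- cells, none with an adjusted p under 0.05 (0% of all guides in either direction). At an unadjusted p under 0.05, 2 were higher and 2 lower, against 1.67% of 11346 guides each way (limma). HEY2 spanned the widest range, from -1.39 for HEY2_1 to 3.13 for HEY2_6. HEY2_6 was nearly absent at day 0, with 1 read and 0 reads, and held 1292, 59 and 54 reads in the 2D TNNT2- and 0, 0 and 56 reads in the 2D TNNT2+ libraries, so 1 library supplied most of its reads. HES1_3 had 2.16 ± 0.81 (SE), with 72.5, 121 and 63.4 CPM in TNNT2- and 10.1, 9.996 and 52.8 CPM in TNNT2+ libraries. The HEYL guides opposed each other, as HEYL_1 had 1.95 and HEYL_7 -1.28, and in TNNT2+ replicate 1 they held 1 and 7616 reads. HES6_7, at -1.04, was the next lowest after HEY2_1 and HEYL_7.

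In the 3D sort no member passed either, and the spread was wider, with a median standard error over genes of 0.76 against 0.25 in 2D. No gene was called by limma (0% of genes in either direction). DESeq2 called 2 genes higher, and edgeR 0, none of them members. At an unadjusted p under 0.05 no member was higher or lower, against 0.802% and 2.1% of genes. None of the 10 members separated the fractions, which 2.78% of genes did as higher and 4.75% as lower. The members' median was 0.03, beside -0.08 over all genes.

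HES7 had the largest 3D value among the members, and it came from 1 library. Its guides summed to 655, 569 and 583 CPM in TNNT2- and to 754, 647 and 1388 CPM in TNNT2+ libraries, the highest being replicate 3. In that library all 7 HES7 guides held at least 1405 reads, while 43.6% of all guides were under 10. The log2 fold change was -1.07 ± 0.76 (SE) (limma adjusted p = 0.990). It rests on the deposited scale, where the log2 guide means were 10.23, 9.30 and 13.24 in the TNNT2+ libraries. On that scale replicate 3 stood further from the others than in CPM, so the scaling of this library enters the value. How much of the value is due to scaling was not tested. With TMM scaling it was -0.72, and edgeR on summed reads gave -0.62. HES7 lay at 0.09 when 3D TNNT2+ replicate 3 was left out, and at 0.19 without 3D TNNT2- replicates 2 and 3 and 3D TNNT2+ replicate 3, the 3 thin 3D libraries.

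For HES5 the 3D value was 0.63 ± 0.66 (SE, 95% interval -0.74 to 2.002, limma adjusted p = 0.990). Its guides summed to 538, 641 and 503 CPM in TNNT2- and to 359, 543 and 383 CPM in TNNT2+ libraries, which overlapped. With guides summed before the log2 the value was 0.11, and the median guide lay at 0.08. On the log2 guide means each HES5 TNNT2- library lay above the TNNT2+ library of the same replicate number in 3D, by 0.81, 0.71 and 0.38. Of all genes 10.8% were higher and 15.2% lower in 3 of 3 such pairs in 3D, and HES5 was the 1 member among them. In 2D HES5 (0.73, 0.50 and 0.31) and HES4 (0.32, 0.69 and 0.61) were higher in 3 of 3 pairs, as 15.3% of genes were, while 11.3% were lower. Without the 3 thin libraries the 3D value was 0.52, from a fit with 1 TNNT2- library. HES4, which led in 2D, had -0.01 ± 0.64 (SE) in 3D, and its guides summed to 759, 439.7 and 318 CPM in TNNT2- and 718, 643 and 517 CPM in TNNT2+ libraries. Without the 3 thin libraries it lay at 0.20.

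The remaining 3D values lay between -0.52 for HES1 and 0.23 for HES2. RBPJ had -0.43 ± 0.99 (SE), with a 95% interval from -2.49 to 1.64, and 0.15 without the 3 thin libraries. HES1 had -0.52 ± 0.84 (SE) and 0.06 without them. HEY1, HEY2 and HEYL had 0.12 ± 0.76 (SE), 0.10 ± 0.87 (SE) and 0.08 ± 0.57 (SE), and HES6 -0.29 ± 0.63 (SE). Single guides ranged from -5.40 for HES1_2 to 3.48 for HES2_3. HES1_2 held 19 and 15 reads in 3D TNNT2- replicates 2 and 3, but 2594 in replicate 1 and 4056, 2255 and 9035 in the TNNT2+ libraries. RBPJ guides lay at both ends, with RBPJ_4 at -4.04 and RBPJ_5 at 3.43. In 3D TNNT2+ replicate 3 these held 5346 reads and 1 read. HES4_5 had -3.66 and HES5_5 3.24. HES1_2 and HES4_5 were the 2 guides lower at an unadjusted p under 0.05 and 0 were higher, against 0.883% and 0.406% of 11331 guides (limma). No member had all 7 guides on 1 side, as 0.649% of genes did toward TNNT2- and 1.43% toward TNNT2+.

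The difference between the sort ratios of 3D and 2D was tested directly, on reads scaled together. No member passed (smallest adjusted p = 0.997 by limma), and 0% of all genes were called in either direction. At an unadjusted p under 0.05, 0 members passed, against 0% of genes higher and 1.17% lower. For HES4 the difference was -0.43 ± 0.88 (SE), for HES7 -0.97 ± 0.81 (SE), for HES5 0.23 ± 0.81 (SE) and for RBPJ -0.42 ± 0.999 (SE). The 95% interval for HES4 ran from -2.29 to 1.43, so the HES4 values of the systems were not shown to differ. Of the 70 guides, 31 had the same sign in both sorts (44.3%), beside 50.5% of all targeting guides.

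A further question is which knockouts became rarer or more common between day 0 and day 25. HES6 and HES5 guides were lower at day 25 in 2D by their summed levels, and HEY2 guides higher, but no member passed the main test. Both fractions of a differentiation were averaged, and both systems share the 2 day 0 libraries. In 2D the main test gave HES5 0.18 ± 0.42 (SE, limma adjusted p = 0.745), of the other sign than its summed levels. It gave HEY2 1.76 ± 0.94 (SE, limma adjusted p = 0.411), and the median over all genes was 0.82. HES6, on chromosome 2 from 238238267 to 238240038, summed to 571 and 703 CPM at day 0. At day 25 in 2D it summed to 425, 395 and 398 CPM in TNNT2- and to 490.4, 422 and 385 CPM in TNNT2+ libraries, all below day 0. In 3D its libraries, from 372 to 632 CPM, overlapped with day 0. HES5 lay below its day 0 levels in all 6 libraries of 2D (383 to 678 CPM) and all 6 of 3D (359 to 641 CPM). HEY2 summed to 436 and 363 CPM at day 0 and was above them in all 6 libraries of 2D (477 to 596 CPM), but not in 3D (341 to 962 CPM). Over all genes, 5.74% were higher and 6.23% lower without overlap in 2D, and 3.02% and 3.33% in 3D.

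On the mean over guides most genes lay above day 0, 86.8% in 2D and 82.1% in 3D, with medians over all genes of 0.82 and 0.70. These medians were 0.07 and 0.26 without day 0 replicate 2, in which 32.5% of guides were under 10 reads, and 1.55 and 1.18 without replicate 1. Relative to those medians, HES6 had -1.02 in 2D and -0.16 in 3D, HES5 -0.63 and -0.91, HEY2 0.94 and 0.99, HES7 0.21 and 1.004, and RBPJ 0.50 and 0.42. HES4 had 0.34 and 0.45, HEY1 0.12 and 0.05, HEYL -0.26 and -0.13, HES1 -0.17 and -0.25, and HES2 -0.21 and -0.24. The members' medians before this step were 0.79 and 0.66. No gene was called in either system (0% in either direction, limma). At an unadjusted p under 0.05, 0 members were higher in 2D (2.96% of genes) and 0 lower (0.37%), and in 3D 2 were higher (11% of genes) and 0 lower (0.0617%). On the log2 guide means, HEY2 and HES4 lay above day 0 without overlap in 2D (32% of genes), and HEY2, HEYL, HES4 and HES7 in 3D (25.7%). No member lay below day 0 without overlap on that scale, as 3.27% and 1.97% of genes did. No member had all 7 guides higher or lower in 2D, against 1.16% and 0.579% of genes, or in 3D, against 3.3% and 0.194%.

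Those 2 were HEY2, at 1.69 ± 0.77 (SE), and HES7, at 1.71 ± 0.75 (SE), both with limma adjusted p = 0.436. HEY2 had 6 guides that passed the filter there. Both genes leaned on day 25 replicate 3. The log2 guide means of replicates 1, 2 and 3 were 9.53, 9.56 and 11.58 for HEY2, and 10.15, 10.09 and 12.54 for HES7. This was not particular to them, as HES6 (9.31, 9.56 and 11.64) and RBPJ (8.27, 8.44 and 11.16) rose likewise. HEYL was also highest in replicate 3, while HEY1, HES1, HES2 and HES4 were lowest there. These means are on the deposited scale. In CPM, HEY2 summed to 962 in 3D TNNT2- replicate 3 but to 341 in 3D TNNT2+ replicate 3. Without the 3 thin 3D libraries HEY2 and HES7 lay at 1.11 and 0.51. With the guides under 10 reads at day 0 left out, their 3D values were 0.12 and 0.16, beside a median over all genes of -0.25 in that fit. HES6 in 2D was -0.21 ± 0.51 (SE, limma adjusted p = 0.760), and -1.62 with those guides left out. The guides left out were under 10 reads in at least 1 day 0 library. Of the members' guides, 25 were so in replicate 2, and 1 of these also in replicate 1. The choice thus rests on the same day 0 values that enter the fold change. With them left out the median over all genes was -0.33, with 8 of 10 members below 0. Relative to that median HES6 lay at -1.29, RBPJ at -0.65, HES5 at -0.61 and HEY2 at -0.08. With guides summed HES6 was -1.02 (adjusted p = 0.520, limma), beside a median over all genes of -0.40. DESeq2 on summed reads put it at -0.64 and called it lower (adjusted p = 0.0388), one of 18 genes it called lower. edgeR on the same reads gave -0.63 and no call (adjusted p = 0.585). In 2D, 5 of the 7 HES6 guides were lower, from -2.98 for HES6_1 upward, while HES6_2 and HES6_3, with 7 and 2 reads in day 0 replicate 2, were the 2 higher ones. HES5_4 was the only HES5 guide with an unadjusted p under 0.05 in 2D, at -2.50. At an unadjusted p under 0.05, 2 member guides were higher in 2D (2.47% of 11344 guides) and 2 lower (3.97%), and in 3D 5 of 69 were higher (4.45% of 11337 guides) and 0 lower (0.185%). No member guide passed the adjusted test in either system, which 0.00882% of guides did as higher in 3D. HES5_4 held 105 and 468 CPM at day 0 and between 33.7 and 70.1 CPM in the 2D libraries.

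Other genes around the pathway were taken from lists. Of 21 listed Notch receptors and nuclear partners of the pathway, 3 were tested, namely RBPJL, a relative of RBPJ, and the RBPJ-binding repressors SPEN and L3MBTL3. In 2D L3MBTL3 had -0.30 and SPEN 0.45, and 0 of 3 were called (median 0.02, all genes 0.05). In 3D 0 of 3 were called, with L3MBTL3 at 1.18, RBPJL at 0.30 and a median of 0.42 beside -0.08. The other bHLH-Orange genes, HES3, HELT, BHLHE40 and BHLHE41, gave 0 calls of 4 in either sort. HES3, which the set of 10 leaves out, had 0.48 in 2D and 0.73 in 3D, and the list medians were 0.06 and 0.68.

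Of 16 bHLH activators, E proteins and ID factors that HES and HEY proteins oppose or share partners with, 12 were tested and 0 called in either sort, with medians of 0.20 in 2D and 0.04 in 3D. The E protein TCF12 had the smallest p of the list in both sorts, at 0.57 and 1.15. Of 12 cardiac chamber and atrioventricular canal factors all were tested and 0 called, with medians of 0.02 and -0.41. NKX2-5, an early cardiac homeobox factor, had the smallest p of the list in 2D, at -0.44, and GATA4, a zinc finger factor of heart development, in 3D, at 1.44. Each value given for a gene of these 4 lists had a limma adjusted p of 0.963 where it is from 2D and of 0.990 where it is from 3D.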

How the data were processed

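Guide cassettes were amplified from genomic DNA and counted in 14 libraries. The authors deposited a 2D and a 3D table of a normalized signal per guide, each scaled separately. Within a library every deposited value is a whole multiple of the smallest one (100% of values, tolerance 0.001), which gives back the read counts up to the scale of each library. In 8 of the 16 columns low values were too few for a separate test of this step. MAGeCK and the build hg38 are named per the submitters' processing notes. Version and settings of MAGeCK are not stated in any label or header used here. PCR reads carry no molecular identifiers, so depth does not give the number of molecules.

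The mean of log2(value + 10) over a gene's guides was tested in limma 3.58.1 (lmFit, then eBayes with a trend). Guides with a mean value under 10 were left out, as were genes with fewer than 3 guides after that. The pseudocount understates changes of low guides. P-values were adjusted by Benjamini-Hochberg over all genes. Rank aggregation of guides in the manner of MAGeCK, with an exact null of uniform ranks, was an alternative, as were edgeR (version 4.0.16) and DESeq2 (version 1.42.0) on recovered reads summed per gene. Scripts were tested on simulated reads. The members and lists were chosen with earlier results of these data known. Named genes were the 10 members, at most the 2 genes with the smallest p of each list in each sort, the extreme guides of each sort, and the genes most like HEY2, HES1 and RBPJ across libraries. Other guides and the guide counts beside them were named after their values were seen.

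The labels' protocols say that 3 biological replicates were differentiated and sorted into both fractions, so a shared number was read as 1 differentiation. Deviations from the group means correlated between the fractions of a differentiation by 0.131, 0.121 and 0.153 for 2D, and by 0.106, 0.0467 and 0.0693 for 3D. The labels do not tell whether the day 0 libraries are separate cultures, and p-values against them may measure technical spread. Gene positions are those of the GRCh38.p14 table.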

Additional observations from a re-analysis of the deposited data

How the results depend on the processing

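In both sorts and in the difference between them, 0 of the 10 members were called in either direction under each of 16, 17 and 23 alternatives, which covered pseudocounts of 1 and 100, no filter, control guide and TMM scaling, summed guides, edgeR, DESeq2, rank aggregation, a replicate block, and leaving out single libraries. With the replicate block HES4 in 2D had 0.54 (adjusted p = 0.896, limma), and the block changed no call of a member. Without each library in turn HES4 in 2D ranged from 0.48 to 0.61 and HES5 from 0.34 to 0.61, and over the other alternatives from 0.34 to 0.58 and from 0.18 to 0.55. HEY1, HEYL, HES2, HES6, HES7 and RBPJ changed sign in 2D without at least 1 library, and HEY2 in 3 of its 10 other alternatives. HES1, HES4 and HES5 kept theirs in all 16 alternatives of the 2D sort. In 3D HES5 alone of the members kept its sign in all of its 17 alternatives, between 0.08 and 0.89. Such fits reuse the same libraries, and the share of all genes that kept their sign was not determined. At day 25 in 2D, DESeq2 called 1 member lower (HES6), and counts of members called higher ranged from 0 to 9 over the fits that leave out 1 library. The 9 came without day 0 replicate 1, when day 0 replicate 2 alone stood for day 0 and 1244 of 1621 genes were called higher, and the fit without replicate 2 called 0 members. The lone library is assumed there to vary like the others. In 3D at day 25, 0 members were called under any of 22 alternatives. RBPJ at day 25 in 2D moved from 2.86 without day 0 replicate 1 to -0.22 without replicate 2, beside medians over all genes of 1.55 and 0.07.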

Other observations

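Across the 14 libraries, the genes whose summed log2 CPM ran most like HEY2 were MYT1L (Pearson r = 0.95) and ZNF141 (0.876). Without the 4 libraries with many low guides these values were 0.779 and 0.592. For HES1 they were MSGN1 (0.754, and 0.826 without those libraries) and ZNF623 (0.661 and 0.503). For RBPJ they were MSX1 (0.861 and 0.889) and CREBZF (0.855 and 0.817). These are the highest values among 1574 genes, and the points share libraries, depth and many low guides in 4 libraries, so they describe these libraries only.

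The top guide of a member held 20.3% to 32.4% of its gene's reads in day 0 replicate 1 and 29.5% to 59.4% in day 0 replicate 2. In 3D TNNT2+ replicate 3 it held 28.1% to 62.9%, the highest being HEY2_3. The member medians of 24.5%, 42.7% and 43.9% in these libraries lay beside 27.3%, 42.7% and 49.2% over all genes with 7 guides. Of the 26 member guides under 10 reads in 3D TNNT2+ replicate 3, 13 were also under 10 in day 0 replicate 2. In that day 0 library 25 of all 70 member guides were under 10. The share of all guides under 10 reads in both libraries was not determined, so no link between them follows. HEY1_5, with 517 reads in day 0 replicate 1 but 2 in replicate 2, held 8 reads and 0 reads in the TNNT2- and TNNT2+ libraries of the second 2D differentiation. In 3D replicate 3 it held 1 read and 0 reads in these fractions. The share of all guides this low in both fractions of a differentiation was not determined.

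By rank aggregation of guides, the smallest unadjusted p among the members in the 2D sort was 0.00907, for HES2 toward TNNT2+, with 5 of 7 guides lower, a median of -0.44 and an adjusted p of 0.807. In the 3D sort it was 0.0394, for HES1 toward TNNT2+, with an adjusted p of 0.827. There 4 of 7 HES1 guides were lower and 3 higher, with a median of -0.01. The HES1 log2 fold change turned to 0.37 without 3D TNNT2- replicate 3. In the exact null of uniform ranks each guide counts as independent, which the spread between libraries does not enter.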
